A study of Mus musculus with 6 samples.

Results

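The clustered protocadherins are 3 neighbouring gene families on mouse chromosome 18, named Pcdha, Pcdhb and Pcdhg. The regions described here are all those of the deposited files that overlap the stretch holding these families on chromosome 18 of build mm9. There were 300 such regions of 209687 in all, the first starting at 37079969 and the last ending at 38002348. By position, 75 regions belonged to Pcdha, 70 to Pcdhb and 120 to Pcdhg, and 35 lay before, between or after these. Levels are given as methylated calls in percent of all calls over the CpGs of a region. A value in all 6 samples was had by 278 of the 300. Of the 22 left out, 20 were sparse, that is held 3 to 5 CpGs, and 2 held 6 to 9. No region with 10 or more CpGs, called dense below, was lost.

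The samples were colon epithelial cells scraped from C57BL/6 mice aged 18 weeks, with the proximal colon and right-side tumors first removed, and with 2 samples in each of 3 groups. The control group is named as such in the labels. The AOM/DSS group was induced with AOM (azoxymethane, a colon carcinogen) and DSS (dextran sulfate sodium, which inflames the colon). The third group, called the curcumin group here, was AOM/DSS induced and treated with curcumin, a turmeric polyphenol. The study asks which methylation changes accompany colitis-accelerated colon cancer and whether curcumin blocks them. The sources used here give no doses or dates. They do not say whether the 2 samples of a group are 2 mice, so p-values rest on a spread between samples that may be technical. The labelled cell type could not be checked against marker genes, since no expression values belong to these samples, and the part of other mucosal cells in the levels was not tested.

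Clustered protocadherins are cell adhesion proteins that neurons use to tell their own branches from those of other cells. In the Pcdha and Pcdhg clusters each variable exon has its own promoter and is spliced to constant exons shared by the cluster, while each Pcdhb gene stands alone. A neuron switches on a small, largely random choice of the alternate promoters, and DNA methylation and the insulator protein CTCF take part in that choice. The C-type genes at the ends of Pcdha and Pcdhg are not chosen in this random way. In several human tumours the promoters of these clusters gain methylation together. In the RefSeq table of another build, GRCm38, the order on the chromosome is 12 Pcdha genes, then Pcdhac1 and Pcdhac2, then 22 Pcdhb genes, then Slc25a2, Taf7 and 1 pseudogene, then 19 Pcdhga and Pcdhgb genes, and last Pcdhgc3, Pcdhgc4 and Pcdhgc5. That table gave names and order only. No annotation of mm9 was used, so no region below is assigned to a gene, promoter or exon.

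Depth over the locus as a whole was above that of the rest of the data. The 6 samples held 24682973 to 30727568 calls in all and 68680 to 85127 over the protocadherin regions, whose median was 201 to 243 calls a region against 89 to 106 over all regions. Per CpG there were 16.2 to 20 calls here and 13.7 to 17.0 elsewhere. Dense regions of the Pcdhg array, defined below, were shallower than the rest of the data in each sample. They had 12.6 to 15.3 calls per CpG. The variable exons of a family are close copies of each other. The sources used here do not say how reads that fit several copies were placed, and its part in the levels was not tested.

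Dense regions of the protocadherin families stood at intermediate levels, where dense regions elsewhere were mostly unmethylated. Dense regions made up 68.7% of the protocadherin regions and 34.2% of the others. Of the 191 dense protocadherin regions, 155 (81.2%) had a mean level over the 6 samples of 20 to 80%, 21 were below 20% and 15 above 80%. Of the 61370 dense regions outside, 16.3% were at 20 to 80%, 72.2% below and 11.4% above. On the rest of chromosome 18 the share at 20 to 80% was 14.9% of 1674. Sample by sample the share ran from 77.0% to 81.2% in the protocadherins and from 15.9% to 17.1% elsewhere, so that the ranges over the 6 samples stood far apart. The median dense region was at 57.2% here and at 3.12% elsewhere. Sparse regions differed less in their median, which was 58.8% here and 61.0% elsewhere. Their share at 20 to 80% was also larger here, at 74.4% against 43.8% elsewhere. For regions of 6 to 9 CpGs that share was 70.5% here and 39.7% elsewhere. The limits of 20 and 80% were chosen with the levels known.

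The intermediate levels lay mainly in 3 long arrays, and less in the stretches at their ends. The limits of the arrays were also drawn after the levels along the chromosome had been seen. The Pcdha array, from 37090025 to 37182184, had 46 of 54 dense regions at 20 to 80% and the other 8 above. The Pcdhb array, from 37454201 to 37680194, had 49 of 50 at 20 to 80% and 1 above. The Pcdhg array, from 37821345 to 37931795, had 51 of 55 at 20 to 80% and 4 below. Of the 8 dense regions after the Pcdha array, 5 were below 20% and 3 at 20 to 80%. Between the Pcdhb and Pcdhg arrays, the 11 regions of any CpG number had 3 below 20%, 3 at 20 to 80% and 5 above. The 18 dense regions after the Pcdhg array also split otherwise than the arrays, with 9 below 20%, 4 between and 5 above 80%.

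**Figure D1:**
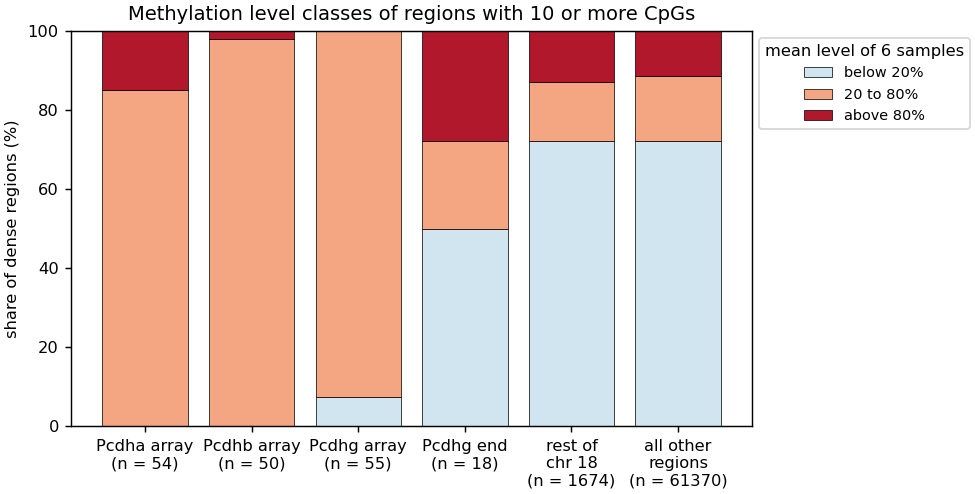
Share of regions with 10 or more CpGs in 3 classes of methylation level (mean of the 6 samples), in percent of the dense regions of each stretch. The 3 arrays are at 20 to 80% in 85.2, 98.0 and 92.7% of their dense regions, against 16.3% of dense regions outside the protocadherins. The end of Pcdha and the stretch between the Pcdhb and Pcdhg arrays are not drawn.

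Over all their regions, the Pcdha and Pcdhb clusters averaged above Pcdhg in every sample. Among sparse regions alone, Pcdhb minus Pcdhg was -13.6 points. The mean level of all Pcdha regions was 56.8% to 59.9% over the 6 samples, that of Pcdhb 54.8% to 57.3% and that of Pcdhg 48.4% to 51.6%. Within a sample Pcdha exceeded Pcdhg by 9.08 points ± 1.17 (SD, n = 6) and Pcdhb exceeded Pcdhg by 6.60 points ± 1.69 (SD, n = 6). In the exact permutation test on signs over the samples, two-sided, both gave p = 0.0312, the smallest that 6 samples allow. The adjusted p over 4 such comparisons was also 0.0312 in this test. The test takes samples as units over the same regions, so it measures no spread between regions. Pcdha exceeded Pcdhb by 2.48 points ± 1.06 with the same p in the exact test, but this order turned around among dense regions, where Pcdha lay 4.89 points below Pcdhb. Dense Pcdhb regions stood at 62.8% and 63.3% in control, 62.4% and 63.8% in AOM/DSS and 61.5% and 61.1% with curcumin. Dense Pcdha regions stood at 57.9% and 57.7% in control, 59.0% and 58.3% in AOM/DSS and 57.0% and 55.7% with curcumin. Dense Pcdhg regions stood at 41.4% and 42.0% in control, 45.1% and 43.1% in AOM/DSS and 42.2% and 42.3% with curcumin. Dense regions of the clusters therefore ranked Pcdhb, Pcdha, Pcdhg in each of the 6 samples, without overlap. In the arrays alone the order within each sample was the same, but the ranges of Pcdhb and Pcdha overlapped. They were 61.1% to 63.7% for dense Pcdhb array regions and 58.9% to 62.4% for Pcdha, with 62.6% and 62.4% in AOM/DSS replicate 0. Dense Pcdhg array regions stood at 44.6% to 48.7%. The depth moved with this order: dense regions had 19.8 to 24.8 calls per CpG in the Pcdhb array, 18.2 to 22.8 in the Pcdha array and 12.6 to 15.3 in the Pcdhg array. Its part in the order was not tested.

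The level was next set beside the number of CpGs in each array. In the Pcdhb array the 16 sparse regions averaged 43.0%, the 12 regions of 10 to 14 CpGs 52.5% and the 6 regions of 25 or more CpGs 68.8%. The Pcdhb array thus had its highest mean in the regions with most CpGs. In the Pcdha array this did not hold over all regions, as the 2 sparse regions averaged 78.9%. The 7 of 6 to 9 CpGs averaged 59.4% and the 12 of 10 to 14 CpGs 55.6%. The 17 of 15 to 19 CpGs averaged 53.8%, the 10 of 20 to 24 CpGs 64.7% and the 15 of 25 or more 71.0%. Among dense Pcdha array regions the mean was thus also highest in those with 25 or more CpGs. In the Pcdhg array the 15 regions of 6 to 9 CpGs averaged 62.2%, above the 11 regions of 20 to 24 CpGs at 38.8% and the 12 of 25 or more at 50.7%. Within an array and a range of CpG numbers, regions had SDs of 5.46 to 24.2 points. Over all protocadherin regions, dense ones were lower than sparse ones. The difference was -4.80 ± 1.80 (SD over samples, n = 6, two-sided exact sign permutation p = 0.0312, adjusted p = 0.0312). Here too the test measured no spread between regions. Over the regions of the 3 arrays alone the sign was the opposite, with dense regions 3.43 points higher, but by array this held only in Pcdhb. There dense regions stood at 61.1% to 63.7% over the samples and sparse ones at 40.5% to 47.3%. In the Pcdhg array dense regions were lower, at 44.6% to 48.7% against 57.5% to 64.4%. They were also lower in the Pcdha array, at 58.9% to 62.4% against 69.1% to 85.5% in its 2 sparse regions. Over all protocadherin regions with at least 50 calls in each sample, dense regions were 1.74 points higher. Outside the protocadherins, dense regions averaged 20.7% to 21.1% over the samples and sparse ones 52.5% to 54.3%.

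Within the arrays the level often rose along short runs of neighbouring regions. Neighbouring regions no more than 2000 bases apart were joined into blocks, a choice made after the levels had been seen, and blocks of at least 3 regions were kept. The Pcdha array gave 12 such blocks, the Pcdhb array 17 and the Pcdhg array 11. In Pcdha the first region of a block averaged 45.6%, the region with most CpGs 72.5% and the last region 74.1%. The first region was below the one with most CpGs in 6 of 6 samples for 11 of the 12 Pcdha blocks and for 15 of the 17 Pcdhb blocks. Pcdhb blocks went from 41.6% to 67.5% and came down to 55.6% in the last region. Pcdhg blocks went from 33.7% to 55.0% and to 66.1% in the last region, and their first region was below the one with most CpGs in all samples for 5 of 11. The first region was below the last in all samples for 11 of 12 Pcdha, 9 of 17 Pcdhb and 9 of 11 Pcdhg blocks. It had the lowest level of its block in 7 of 12 Pcdha, 12 of 17 Pcdhb and 5 of 11 Pcdhg blocks. The region with most CpGs had the highest level in 3 of 12 Pcdha, 9 of 17 Pcdhb and 3 of 11 Pcdhg blocks. With a limit of 3000 bases Pcdhg gave 5 blocks, whose first regions averaged 21.3%, while Pcdha gave the same number of blocks. Blocks were not matched to genes.

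**Figure D2:**
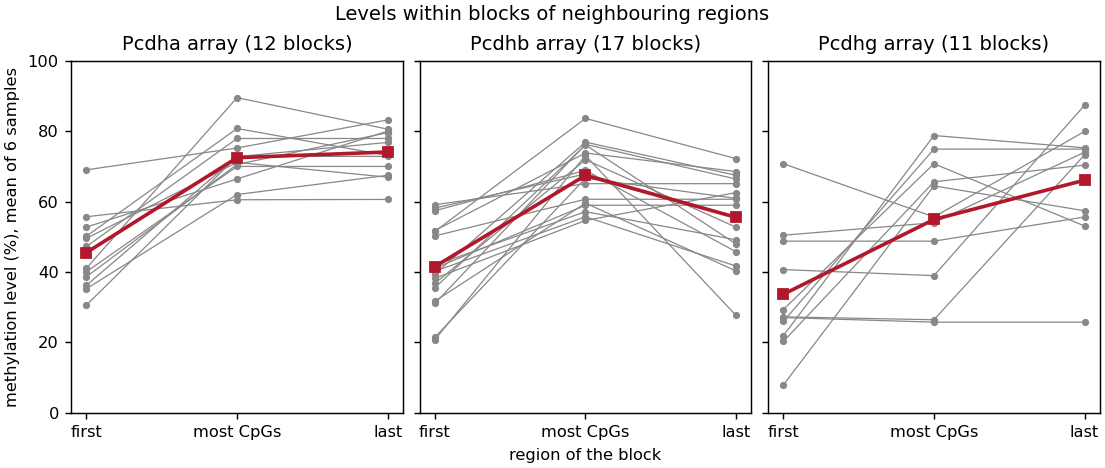
Mean methylation level over the 6 samples, in percent, of the first region, the region with most CpGs and the last region of each block of neighbouring regions (grey lines, 1 per block; red squares, the mean of the blocks). First regions average 45.6, 41.6 and 33.7% in the Pcdha, Pcdhb and Pcdhg arrays and regions with most CpGs 72.5, 67.5 and 55.0%.

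One Pcdha block was picked for display after its values were seen. Unlike most Pcdha blocks, it had its highest level in the region with most CpGs, and its lowest in the first region. Its first region, from 37127093 to 37127555 with 21 CpGs, stood at 41.0% and 38.7% in the control samples, 46.9% and 49.8% in the AOM/DSS samples and 36.0% and 34.3% in the curcumin samples. The next, from 37127736 to 37128123 with 10 CpGs, averaged 45.6%, the one after it 79.8%, the fourth 89.6% and the last 80.6%. From the first to the fourth region the mean level thus went from 41.1% to 89.6%. The fourth of these, from 37128652 to 37128898 with 22 CpGs, was among the 3 dense Pcdha regions of highest level, at 87.7% and 86.8% in the control samples, 86.9% and 91.2% in the AOM/DSS samples and 91.9% and 93.1% in the curcumin samples. The highest, from 37140796 to 37141221 with 26 CpGs, stood at 93.0% and 92.1% in the control samples, 92.6% and 90.8% in the AOM/DSS samples and 91.3% and 93.8% in the curcumin samples. The remaining one, from 37148294 to 37148621, averaged 84.3%.

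In Pcdhb, the region with most CpGs, from 37468624 to 37469071 with 29 CpGs, stood at 76.6% and 78.9% in the control samples, 77.9% and 85.2% in the AOM/DSS samples and 70.4% and 72.7% in the curcumin samples. It was also among the 3 dense Pcdhb regions of highest level, together with the one from 37596758 to 37597123 at 78.8% and the one from 37495076 to 37495507 at 83.7%. The lowest dense Pcdhb region was the first of the array, from 37454201 to 37454609, with 19.6% and 23.0% in the control samples, 25.3% and 20.3% in the AOM/DSS samples and 20.8% and 19.7% in the curcumin samples. The next lowest averaged 39.5% (from 37466989 to 37467303) and 40.2% (from 37644380 to 37644800), so that 1 dense Pcdhb region stood well below the rest. In Pcdhg the region with most CpGs of all protocadherin regions, from 37881598 to 37882089 with 42 CpGs, stood at 64.3% and 71.4% in the control samples, 67.9% and 63.7% in the AOM/DSS samples and 62.6% and 64.1% in the curcumin samples. Both of these regions were above 60% in each of the 6 samples. Other Pcdhg array regions of many CpGs were mixed. One with 38 CpGs averaged 64.5% and one with 28 CpGs 25.8%, and the 31-CpG one described next was the lowest.

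The dense regions with a mean under 5% lay outside the arrays. Inside them the lowest dense region was that from 37901669 to 37902122 in the Pcdhg array, with 31 CpGs and a mean of 7.87%. In Pcdha, the region with most CpGs, from 37303738 to 37304189 with 41 CpGs, averaged 6.42% and its neighbour from 37303174 to 37303556 with 34 CpGs 3.55%. The third lowest dense Pcdha region, from 37249473 to 37249884, averaged 18.0%. The last of these thus kept some methylation. After the Pcdhg array, 2 groups of dense regions, 4 in the first and 3 in the second, were nearly without methylation. They averaged 1.05% to 2.03% in the first group and 0.659% to 1.90% in the second. The region from 37974219 to 37974635 with 14 CpGs had 0.226% and 0.674% in the control samples, 0.591% and 1.46% in the AOM/DSS samples and 0.458% and 0.543% in the curcumin samples, at 368 to 508 calls. Its neighbour from 37974733 to 37975164 with 28 CpGs averaged 0.823%. In the first group, the region from 37966064 to 37966421 with 27 CpGs averaged 1.05%. Farther along, the chromosome was methylated again, except for 1 dense region from 37982002 to 37982321 with 21 CpGs, which averaged 3.42%. The highest dense Pcdhg regions, from 37979932 to 37980138, from 37977217 to 37977487 and from 37980861 to 37981122, averaged 95.1%, 95.0% and 88.4%. The step from 0.823% to 95.0% took place within less than 3000 bases. In the RefSeq order the genes at these places in the clusters are the C-type genes, but the regions were not matched to them. Between the Pcdhb and Pcdhg arrays, where the table lists Slc25a2 and Taf7, 2 adjoining regions with 27 and 30 CpGs averaged 1.05% and 1.62%.

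**Figure D3:**
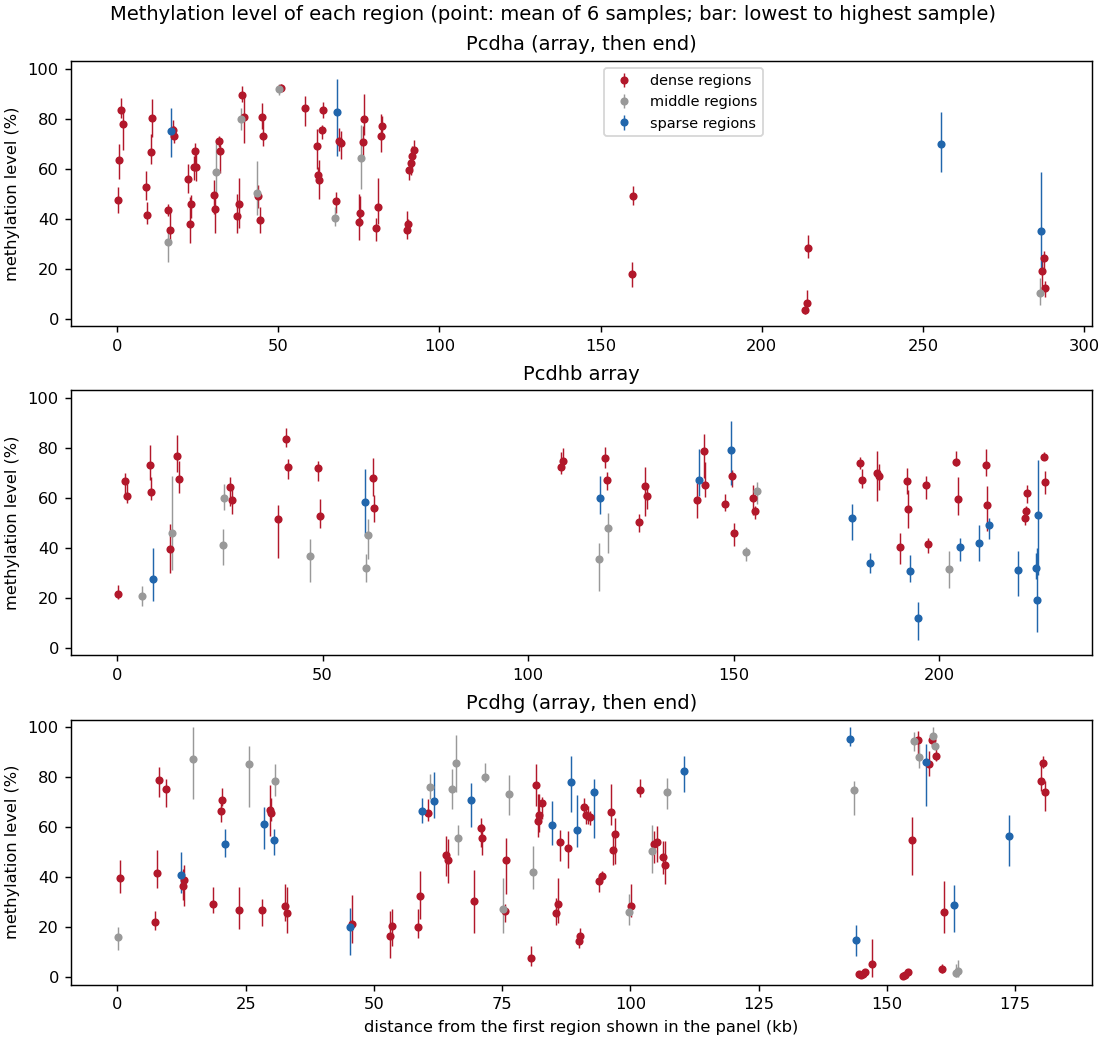
Methylation level in percent of each region with a value in all 6 samples, against the distance in kb from the first region of the panel. Points are means of the 6 samples, bars run from the lowest to the highest sample, and colours give the CpG class (dense, 10 or more CpGs; middle, 6 to 9; sparse, 3 to 5). Array regions lie mostly between 20 and 80%, and the dense regions near 0% lie at the ends of Pcdha and Pcdhg. The stretch between the Pcdhb and Pcdhg arrays is not drawn.

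Replicates of a group lay closer together in dense protocadherin regions at intermediate levels than in other dense regions at such levels. Over the 155 dense protocadherin regions at 20 to 80%, replicates were on average 4.74 points apart in control, 5.16 in AOM/DSS and 5.14 with curcumin. Over the 10020 other dense regions at 20 to 80% the differences were 7.16, 6.25 and 6.08 points. The protocadherin regions were deeper and larger, with a median of 274 calls in the shallowest sample and 18 CpGs against 147 calls and 12 CpGs, and the part of this in the smaller differences was not tested. The 3 regions with the largest spread between replicates were sparse. The one from 37376740 to 37376756 with 3 CpGs stood at 36.8% and 22.6% in the control samples, 48.6% and 19% in the AOM/DSS samples and 58.5% and 24.4% in the curcumin samples, at 65 to 107 calls. The ones from 37677925 to 37677966 and from 37678205 to 37678298 had as few as 24 calls in a sample, and the first of them ran from 6.25% to 40% over the samples.

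In AOM/DSS against control, no protocadherin region was called, and the dense regions of Pcdhg averaged slightly higher in both AOM/DSS samples. Regions counted as called where the adjusted p was under 0.05 and the group means were 10 points or more apart. EdgeR's quasi-likelihood test called 0 of the 278 regions, where 0.00389% of all 179922 regions were called (0.00111% higher and 0.00278% lower), and limma also called 0. At an unadjusted p under 0.05, with no minimum difference, 12 regions differed in edgeR, which is 4.32% of the protocadherin regions against 6.34% of all regions. With at least 10 points there were 6, or 2.16% against 2.82% of all regions, and 12 without control replicate 0 and 3 without AOM/DSS replicate 0. Of the 6, 5 were higher and 1 lower in AOM/DSS, while the shares over all regions were 0.723% higher and 2.1% lower. Both AOM/DSS samples lay above both controls in 62 protocadherin regions (22.3%, against 14.8% of all regions) and below both in 32 (11.5%, against 20.8%). Of the 62, 32 were among the 110 Pcdhg regions tested, 13 among the 69 of Pcdha and 11 among the 65 of Pcdhb. The median difference was 0.757 points here and -0.264 points over all regions.

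The mean over all protocadherin regions was 53.1% and 53.4% in control, 54.8% and 53.7% in AOM/DSS and 53.4% and 52.8% with curcumin. AOM/DSS exceeded control by 1.00 points, or by 0.455 points without AOM/DSS replicate 0 and 1.55 without AOM/DSS replicate 1. The exact permutation test gave p = 0.333, the smallest two-sided p that 2 samples against 2 allow. By cluster, dense Pcdhg regions went from 41.7% ± 0.407 (SD, n = 2) without induction to 44.1% ± 1.42 (SD, n = 2) after AOM/DSS, which is 2.38 points more, or 1.38 without AOM/DSS replicate 0. AOM/DSS replicate 0 was thus the sample with the higher Pcdhg levels. The difference was 0.881 points in dense Pcdha regions, or 0.545 without AOM/DSS replicate 0, and 0.0585 points in dense Pcdhb regions, where the groups overlapped and the value was -0.652 without AOM/DSS replicate 1. Sparse regions went otherwise, with -0.626 points over all protocadherins, with overlap, and -3.84 points in the Pcdhb cluster, without overlap. In the wider Pcdhb array the sparse difference was -2.86 points, with overlap. Whether Pcdhg moved otherwise than Pcdhb was tested on the gap between them within each sample. That gap was 21.4 and 21.3 points in control and 17.3 and 20.7 points in AOM/DSS (two-sided exact permutation p = 0.333).

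The direction was opposite to that of other dense regions at like levels. Dense protocadherin regions at 20 to 80% went from 55.2% ± 0.394 to 56.3% ± 0.522 (SD, n = 2 each). The 10020 other dense regions at 20 to 80% went from 50.3% ± 0.726 to 49.2% ± 0.0849 (SD, n = 2 each). The differences were 1.17 and -1.1 points, the latter -0.583 without control replicate 0. By array, dense regions at 20 to 80% differed by 2.37 points in Pcdhg, 0.867 in Pcdha and -0.096 in Pcdhb, the last with overlap. Within a sample the protocadherins exceeded the others by 4.04 and 5.62 points in control, by 7.52 and 6.67 in AOM/DSS and by 4.49 and 4.18 with curcumin. Both AOM/DSS samples had a wider gap than each of the other 4 samples. The exact permutation test gave p = 0.333 for AOM/DSS against control and for curcumin against AOM/DSS, again the smallest possible.

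**Figure D4:**
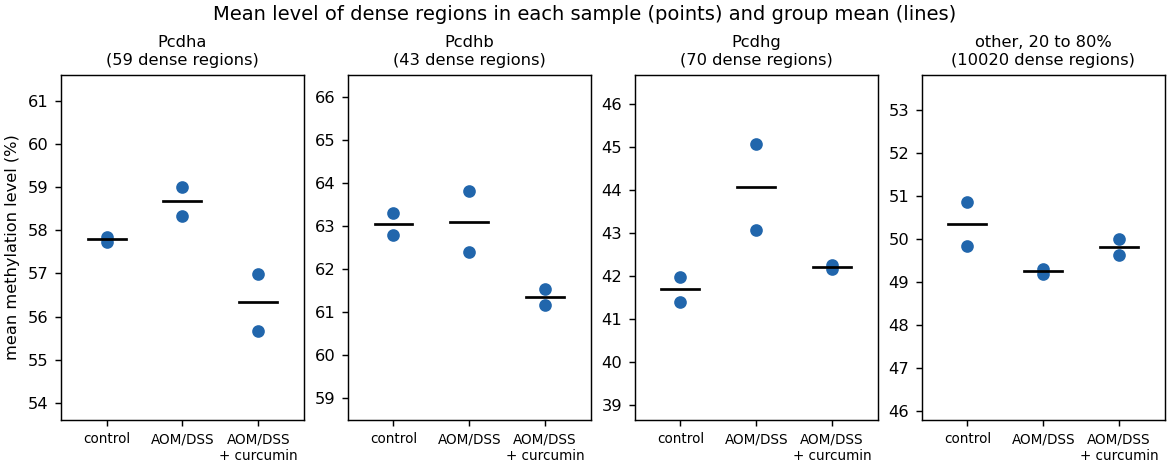
Mean methylation level in percent of dense regions in each sample (points) with the group mean (lines), for Pcdha, Pcdhb, Pcdhg and the other dense regions at 20 to 80%. Each vertical axis spans 8 points and does not start at 0, and dense Pcdhg regions stand at 41.4 and 42.0% in control and 45.1 and 43.1% in AOM/DSS.

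The 5 regions with the smallest p among those higher in AOM/DSS were all dense, and none passed. The one from 37874356 to 37874668 in the Pcdhg array, with 13 CpGs and 163 to 272 calls, stood at 12.5% and 7.65% in the control samples, 26.3% and 19.7% in the AOM/DSS samples and 14.1% and 18.7% in the curcumin samples. The difference was 12.9 points (unadjusted p = 0.00362 and adjusted p = 0.658 in edgeR). A region close to it, from 37874837 to 37874910 with 10 CpGs, stood at 13.9% and 12.3% in the control samples, 26.4% and 27.4% in the AOM/DSS samples and 18.2% and 24.5% in the curcumin samples, a difference of 13.8 points (adjusted p = 0.761 in edgeR). These 2 neighbours had the same order of group means, with AOM/DSS highest and control lowest, and no overlap between AOM/DSS and control. Both were listed for being higher in AOM/DSS and lie close together, so their likeness is not independent support. The region from 37901669 to 37902122 in the Pcdhg array, with 31 CpGs, stood at 6.11% and 4.45% in the control samples, 12.5% and 8.25% in the AOM/DSS samples and 7.10% and 8.77% in the curcumin samples (adjusted p = 0.693 in edgeR). The region with 41 CpGs at the end of Pcdha, from 37303738 to 37304189, stood at 4.25% and 5.99% in the control samples, 9.65% and 11.4% in the AOM/DSS samples and 2.91% and 4.35% in the curcumin samples, so that control and curcumin samples were at or below 5.99% and AOM/DSS samples at or above 9.65%. AOM/DSS exceeded control there by 5.39 points (unadjusted p = 0.0161 and adjusted p = 0.716 in edgeR). The last of the 5, from 37977217 to 37977487 at the end of Pcdhg, was highly methylated, at 91.6% ± 3.11 (SD, n = 2) in control samples against 97.6% ± 1.26 (SD, n = 2) in AOM/DSS (adjusted p = 0.693 in edgeR).

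Of the 5 lower regions with the smallest p, the one highest in level in control was the Pcdha region from 37166586 to 37166949 with 20 CpGs. It stood at 82.9% and 89.8% in the control samples, 75% and 77.2% in the AOM/DSS samples and 79.5% and 73.5% in the curcumin samples, a difference of -10.2 points (unadjusted p = 0.0218 and adjusted p = 0.736 in edgeR). Here the curcumin samples lay with the AOM/DSS samples and below both controls. The Pcdhb region from 37603553 to 37603616 with 4 CpGs stood at 85.0% ± 8.0 (SD, n = 2) in control samples against 71.8% ± 9.66 (SD, n = 2) in AOM/DSS, at only 58 to 75 calls (adjusted p = 0.815 in edgeR). The region from 37665767 to 37666110 in the Pcdhb array stood at 61.6% and 52.4%, and the Pcdha region from 37171751 to 37171997 at 77.9% and 70%. The nearly unmethylated region from 37974733 to 37975164 had 1.31% in control and 0.421% in AOM/DSS. The adjusted p of these 5 ran from 0.723 to 0.834 in edgeR.

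**Figure D5:**
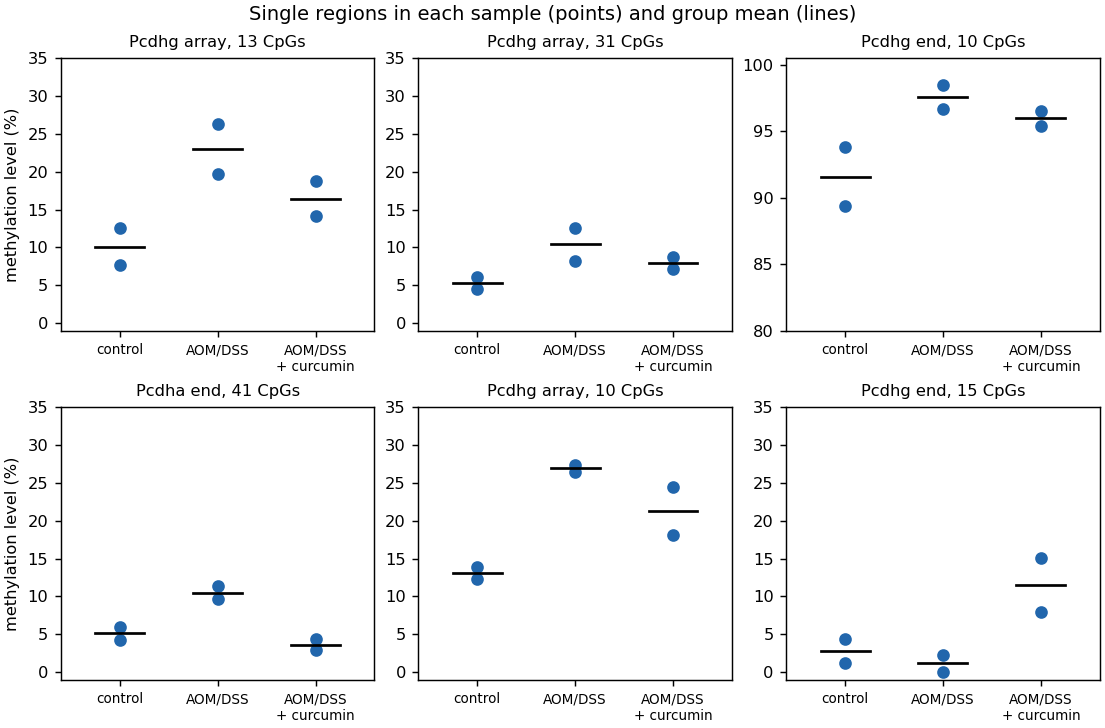
Methylation level in percent in each sample (points) and the group mean (lines) of the 5 regions higher in AOM/DSS with the smallest p, and of the region with the smallest p for curcumin against AOM/DSS (lower right). Axes run to 35% except at upper right, where the axis runs from 80%, and at the 41 CpGs of the Pcdha end both AOM/DSS samples lie above the other 4.

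In curcumin against AOM/DSS, which shares the AOM/DSS samples with the comparison above, no region was called and dense regions of all 3 clusters averaged lower with curcumin. EdgeR called 0 of 278 regions (0% of all regions), limma called 0, and 10 had an unadjusted p under 0.05 in edgeR (3.6%, against 5.25% of all regions). With at least 10 points there were 6, or 2.16% against 2% of all regions, 2 of them higher (background 1.29%) and 4 lower (background 0.706%), and 11 regions in all without AOM/DSS replicate 0. Both curcumin samples lay below both AOM/DSS samples in 75 regions (27.0%, against 16% of all regions) and above both in 29 (10.4%, against 18.9%). Of the 75, 30 were among the 110 Pcdhg regions tested, 22 among the 69 of Pcdha and 18 among the 65 of Pcdhb. The mean over all protocadherin regions was lower with curcumin, with a difference of -1.17 points, or -0.629 without AOM/DSS replicate 0 and -2.11 with pooled calls. In dense regions the difference was -2.34 points in Pcdha, -1.76 in Pcdhb and -1.86 in Pcdhg, each without overlap. Without AOM/DSS replicate 0 the Pcdhg value was -0.853, and without AOM/DSS replicate 1 the Pcdhb value was -1.05 and the Pcdhg value -2.86. The exact permutation p was 0.333 for each. Other dense regions at 20 to 80% differed by 0.564 points, in the other direction. Sparse protocadherin regions were not lower: their difference was 1.46 points with overlap. It was 2.05 points with overlap in the Pcdhg cluster and 3.98 points without overlap in the Pcdhg array. Over all Pcdhg regions the difference was -0.867 points with overlap (exact permutation p = 1), and 0.311 points without AOM/DSS replicate 0.

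Among single regions lower with curcumin, the 41-CpG region at the end of Pcdha had the smallest p, with a difference of -6.88 points (unadjusted p = 0.00356 and adjusted p = 0.921 in edgeR). A pair of Pcdhg array regions had the next smallest p. The one from 37866786 to 37867181 with 24 CpGs stood at 19.7% and 22.2% in the control samples, 22.1% and 33.1% in the AOM/DSS samples and 13.8% and 18.0% in the curcumin samples (adjusted p = 0.928 in edgeR). The one from 37854219 to 37854680 with 28 CpGs stood at 22.0% and 28.0% in the control samples, 36.2% and 28.0% in the AOM/DSS samples and 22.7% and 17.6% in the curcumin samples (adjusted p = 0.928 in edgeR). In both regions the AOM/DSS and curcumin samples did not overlap. Next came the 29-CpG Pcdhb region given above, with a difference of -10.0 points (adjusted p = 0.928 in edgeR). The fifth, the Pcdha region from 37127093 to 37127555, the first of the block described above, stood at 48.3% ± 2.06 (SD, n = 2) in AOM/DSS and 35.1% ± 1.23 (SD, n = 2) with curcumin without passing (adjusted p = 0.936 in edgeR).

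Higher with curcumin was first a region at the end of Pcdhg, from 37968383 to 37968616 with 15 CpGs, between the 2 unmethylated groups. It stood at 1.22% and 4.41% in the control samples, 0% and 2.33% in the AOM/DSS samples and 15.1% and 8.0% in the curcumin samples, a difference of 10.4 points (unadjusted p = 0.000678 and adjusted p = 0.765 in edgeR). The 0% in AOM/DSS replicate 0 rests on 119 calls, which would allow a level of up to 2.52% if calls were independent (3 calls, counting error only). Calls of the same read are not, so the limit may lie higher. This was the smallest unadjusted p of any protocadherin region in the 3 comparisons, at 68 to 119 calls. The Pcdha region from 37158212 to 37158297 with 5 CpGs stood at 76.2% and 78.3% in the control samples, 86.8% and 65.2% in the AOM/DSS samples and 94.1% and 95.9% in the curcumin samples, at 42 to 76 calls (adjusted p = 0.928 in edgeR). Its curcumin samples lay above the other 4, and its AOM/DSS samples were far apart. The unmethylated region from 37803792 to 37804124 between Pcdhb and Pcdhg stood at 1.1% ± 0.987 (SD, n = 2) in AOM/DSS and 3.15% ± 0.221 (SD, n = 2) with curcumin (adjusted p = 0.935 in edgeR). The region from 37376278 to 37376553 beyond Pcdha went from 7.57% to 14.7% and the Pcdhg region from 37909584 to 37909755 from 71.1% to 86.0%, neither passing.

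In curcumin against control, which shares samples with both comparisons above, no region was called and the mean difference depended on the weighting of regions. EdgeR called 0 of 278 regions (0% of all regions) and limma 0, with 6 at an unadjusted p under 0.05 in edgeR (2.16%, against 4.17% of all regions). With at least 10 points there were 2, or 0.719% against 1.46% of all regions (0.562% higher and 0.899% lower), both in Pcdha and higher with curcumin. That count was 13 without control replicate 0 and 5 or 6 without any 1 of the other 3 samples compared. Groups did not overlap in 43 regions higher (15.5%, against 14.3%) and 58 lower (20.9%, against 17.7%) with curcumin. The mean over all regions differed by -0.174 points, with overlap, and by 0.146 without curcumin replicate 1 and -0.494 without curcumin replicate 0. With pooled calls, which give deep regions more weight, it was -1.11 points, without overlap (exact permutation p = 0.333). Dense Pcdha and Pcdhb regions were lower, with differences of -1.46 and -1.70 points, and dense Pcdhg regions higher by 0.522 points, each with an exact permutation p of 0.333. The Pcdha value was -0.794 without curcumin replicate 1, and the Pcdhg value was 0.234 without control replicate 0 and 0.809 without control replicate 1.

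The smallest p belonged to the unmethylated region between Pcdhb and Pcdhg, from 37803792 to 37804124, at 0.712% and 0.554% in the control samples, 1.79% and 0.398% in the AOM/DSS samples and 2.99% and 3.30% in the curcumin samples (unadjusted p = 0.00298 and adjusted p = 1 in edgeR). The Pcdha region from 37120648 to 37120899 with 6 CpGs stood at 49.2% and 48.5% in the control samples, 62.8% and 58.8% in the AOM/DSS samples and 71.4% and 61.5% in the curcumin samples, with both treated groups above both controls (adjusted p = 1 in edgeR). Also higher were the 5-CpG Pcdha region at a difference of 17.8 points, the Pcdhg end region from 37968383 to 37968616 at 8.74 points and the highly methylated Pcdha region from 37128652 to 37128898 at 5.23 points, none passing. In the other direction, the Pcdha region from 37166586 to 37166949 differed by -9.85 points, the Pcdhg regions from 37839830 to 37840268 and from 37850946 to 37851184 by -8.49 and -10.3 points, the Pcdhb region from 37608837 to 37609176 by -9.33 points and the Pcdha region from 37170838 to 37171237 by -8.76 points, the last with overlap. The adjusted p was 1 in edgeR for each of these 10 regions.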

How the data were processed

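Per the labels, DNA of 6 samples was captured (Agilent SureSelectXT Mouse Methyl-Seq) and sequenced after bisulfite treatment, which leaves methylated cytosines readable as such. Per the submitters' processing notes, the build was mm9 and the tools included R 3.4.0, Bismark 0.15.0 and ChIPseeker 1.10.3, with no role stated. The deposited files hold, per region and sample, the number of CpGs and counts of calls and of methylated calls. Deposited values start at 20 calls, and the rest are blank. The sources used here do not say how the authors defined regions, removed duplicates or placed reads of close paralogs. They also do not say whether starts count from 0 or 1, so positions may be off by 1 base.

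A minimum of 10 calls in every sample was set, and all deposited values met it. EdgeR 4.0.16 in R 4.3.3 tested methylated and unmethylated counts of all 179922 such regions with the quasi-likelihood test, 1 coverage coefficient per sample and a shared spread over all 6 samples, with Benjamini-Hochberg adjustment over all regions. Means over regions were compared between samples by exact permutation, two-sided. Calls of the same read depend on each other, and with no molecular identifiers reads may be copies of 1 molecule, so calls alone gave no intervals. Alternatives were other minimum calls and differences, limma 3.58.1 on log2 ratios with 2 added to each count, pooled calls, other CpG classes, the 4 samples compared alone, each sample left out, and the replicate number as a block. Regions were named by a rule: per cluster the region with most CpGs and the 3 highest and 3 lowest dense ones, per comparison the 5 in each direction with the smallest p, and the 3 with the largest replicate spread. Other regions were chosen after their values were seen. The members, classes and lists were chosen with earlier results of these data known. Gene order came from the RefSeq table of GRCm38.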

Additional observations from a re-analysis of the deposited data

How the results depend on the processing

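No protocadherin region was called in any of the 3 comparisons under any alternative run. The order of Pcdha above Pcdhb depended on the choice of regions and the weighting: the difference was -3.14 points with pooled calls and -4.89 points with dense regions only. Pcdhb minus Pcdhg was -13.6 points with sparse regions only. For dense minus sparse regions the value was 1.74 points under a minimum of 50 calls, which leaves out shallow sparse regions, and 3.43 points in the arrays only, an alternative added after the data had been seen. Array by array, dense regions were above sparse ones in Pcdhb only. The causes were not tested. Leaving out each sample gave 2.20 to 2.71 points for Pcdha minus Pcdhb, 8.84 to 9.46 for Pcdha minus Pcdhg, 6.13 to 7.03 for Pcdhb minus Pcdhg and -5.38 to -4.27 for dense minus sparse, where 5 samples cannot reach an exact p below 0.0625. Pooled calls gave -2.11 points for curcumin against AOM/DSS and -1.11 for curcumin against control. For curcumin against control, leaving out a sample moved the mean level difference between -0.494 and 0.146 points. The number of regions at an unadjusted p under 0.05 and 10 points, which was 6, 6 and 2 for AOM/DSS against control, curcumin against AOM/DSS and curcumin against control, was 12, 10 and 6 with no minimum difference (4.32, 3.6 and 2.16%, against 6.34, 5.25 and 4.17% of all regions) and 0 in each with 20 points. With limma it was 2 and 3 in the first and second, and with at least 50 calls it was 1 in the third. Leaving out each sample gave 3 to 12, 4 to 11 and 2 to 13, a lone sample then being taken to vary like the other groups. Deviations of same-numbered samples correlated at 0.00754 to 0.0548 over all regions and at 0.0314 to 0.0801 over the protocadherin regions. Counting noise in single regions can lower such values, so whether replicate numbers pair the samples was not settled. With the replicate number as a block the counts were 6, 7 and 3 and 0 regions were called; a block cannot move the mean differences in this balanced design, so those were not tested by it. Depth limits the sparse regions most: all but 2 of the 22 regions without 6 values were sparse, and 2 samples a group cannot reach an exact p below 0.333.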
